A study of Mus musculus with 13 samples.

Results

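The mouse miRNAs miR-297, miR-466, miR-467 and miR-669 form a rodent group of repeated hairpins, most of which lie in an intron of the gene Sfmbt2. Members were chosen by name: every counted mature miRNA whose hairpin name begins with mir-297, mir-466, mir-467 or mir-669 was taken, on both arms. The rule gave 73 of the 1384 mature miRNAs with a count, from 76 of 903 hairpins. There were 6 mature miRNAs named miR-297, 30 named miR-466, 11 named miR-467 and 26 named miR-669. Of these, 34 were 3p arms, 33 were 5p arms and 6 had no arm in the name.

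Small RNA was sequenced in brain tissue of TgR mice, which carry human AChE-R, the stress-induced readthrough variant of acetylcholinesterase, on the FVB/N background. The transgene is driven constitutively by a minimal cytomegalovirus promoter-enhancer, whose activity the study describes as dependent on neuronal activity. The 13 libraries came from the prefrontal cortex (PFC) of 3 FVB/N and 4 TgR mice and from the hippocampus of 3 FVB/N and 3 TgR mice. FVB/N mice without the transgene were the controls, no drug was named for any library, and the labels give neither the ages of these mice nor whether both regions came from the same mouse.

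Library totals ran from 8769851 counts in TgR PFC replicate 2 to 18385985 counts in TgR hippocampus replicate 1. With each mature miRNA counted at a single hairpin, the totals ran from 5350259 to 11111883 counts. Levels are given as counts per 1000000 (CPM) of those latter totals after TMM scaling. A floor of 3 counts was worth between 0.265 and 0.545 CPM, depending on the library. The tests measure the spread between mice, whereas floors cover counting error only, since reads without molecular identifiers are not independent molecules.

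Sfmbt2 encodes a Polycomb-group protein, is expressed from the paternal allele in early development and extraembryonic tissue, and is required for the trophoblast of the placenta. Its intronic miRNA cluster expanded in mouse and rat and is known from embryonic stem cells and placenta. A miRNA pairs with target mRNAs mainly through its seed, bases 2 to 8 from the 5′ end, and many members have repetitive sequences that resemble one another, so a short read can match several of them.

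Mature sequences were found for 4 of the 73 members in the RefSeq annotation of GRCm38.p6. Each is written 5′ to 3′ with the seed in capitals.
miR-466i-3p: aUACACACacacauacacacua
miR-466j: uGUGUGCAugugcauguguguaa
miR-466k: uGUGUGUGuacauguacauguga
miR-467h: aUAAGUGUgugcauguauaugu

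These 4 sequences consisted almost entirely of alternating purines and pyrimidines. The share of steps from a purine to a pyrimidine or back was 95.2% in miR-466i-3p, 95.5% in miR-466j, 95.5% in miR-466k and 90.5% in miR-467h. The median over the 1679 mature miRNAs of the same table was 45.0%. No seed was shared among the 4, and only miR-467h had its seed in another entry of that table, miR-668-5p. All 4 were rare in brain, with 75, 4, 14 and 14 counts in all libraries together, in the order listed. The hairpins they come from all lay outside Sfmbt2, so these sequences do not stand for the abundant members.

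Sfmbt2 spans chr2:10370440-10595253 in GRCm38.p6, a length of 224.8 kb. All 76 hairpins could be placed, and 70 of them lay inside the gene. Those 70 occupied 51.6 kb, chr2:10466663-10518279, within a single intron at chr2:10461473-10523944. In GENCODE M21 this is intron 10 of one protein-coding transcript and intron 11 of another, each with 23 exons. No hairpin of another name with a count was annotated inside Sfmbt2. RefSeq places Mir669g and Mir669j there too, but neither had a count in any library.

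The other 6 hairpins were scattered over the genome. Hairpin mir-297a-1 was at chr7:10958437-10958512, mir-466f-4 at chr13:71107089-71107209, mir-466j at chr10:60960723-60960844 and mir-467h at chr9:115381819-115381939, none of them overlapping another GENCODE gene on either strand. Hairpin mir-466i, chr13:17747473-17747593, lay antisense within the span of Cdk13, and mir-466k, chr3:85467377-85467498, lay antisense within the span of Gm37240. Of the 73 mature members, 66 had every hairpin inside Sfmbt2 and 6 had none there.

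**Figure D1:**
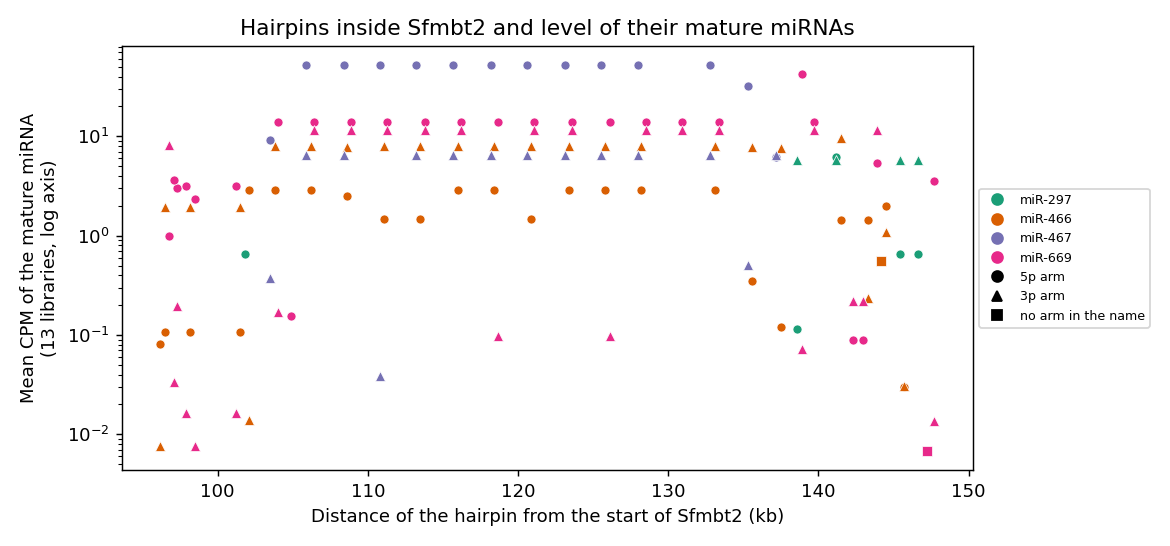
Each point is 1 mature miRNA at 1 of its hairpins inside Sfmbt2, placed by distance from the start of the gene in kb (x axis) and by mean CPM over the 13 libraries on a log axis (y axis), with colour for the family and shape for the arm. Members with several hairpins appear at the same height several times, such as miR-467a-5p at 51.9 CPM, because counts cannot be divided among copies.

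Many names shared their reads. Among the 17 members listed at more than 1 hairpin, 13 had the same counts at each copy in every library. Between different names, 15 of the 49 members with at least 20 counts in total had counts identical to another member in all 13 libraries, in 7 groups. Of 824 other miRNAs with as many counts, 5 (0.61%) were identical to another of them. The pairs miR-669a-5p with miR-669p-5p and miR-669a-3p with miR-669o-3p were such groups, as were miR-467a-3p with miR-467d-3p and miR-297a-3p, miR-297b-3p and miR-297c-3p together. When differences of up to 5% of the total were allowed, miR-467a-5p joined miR-467b-5p, and miR-466a-3p, miR-466b-3p, miR-466c-3p, miR-466e-3p and miR-466p-3p formed a group. Names within a group are therefore uncertain as separate molecules, and counts of members below count several names for 1 measurement.

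The family was a small part of the brain miRNA pool. With each mature miRNA counted at a single hairpin, its share of the counts ranged from 0.0281% in TgR PFC replicate 4 to 0.0524% in TgR PFC replicate 2. Of the 73 members, 8 averaged at least 10 CPM, 30 averaged between 1 and 10 CPM and 35 averaged under 1 CPM. A count was present in all 13 libraries for 42 members, whereas 24 had fewer than 20 counts in total. The filter on low counts left 37 members tested in all 4 comparisons and 33 in none.

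The miR-467 family held 43.0% of the summed CPM of the members, miR-669 held 32.7%, miR-466 held 18.0% and miR-297 held 6.29%. The 5p arms held 69.5% and the 3p arms 30.3%. Alone, miR-467a-5p and miR-467b-5p together held 27.1%. These shares count shared reads under every name that lists them. With identical counts taken once, the members held 85.4% of the same sum, with miR-467a-5p and miR-467b-5p both still in it. The most abundant names were miR-467b-5p at 52.0 CPM and miR-467a-5p at 51.9 CPM on average, ranks 263 and 264 among 1384 miRNAs. Next came miR-669c-5p at 42.8 CPM and miR-467e-5p at 32.0 CPM, followed by miR-669a-5p and miR-669p-5p at 13.9 CPM, miR-669a-3p and miR-669o-3p at 11.7 CPM, miR-466d-3p at 9.62 CPM and miR-467c-5p at 9.20 CPM.

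Arm use differed sharply between hairpins of similar name. Over all libraries, miR-467b had 6072 counts on the 5p arm and 4 on the 3p arm, and miR-669c had 5036 and 8. The 5p arm also led for miR-467e, with 3691 against 58 counts, and for miR-467c, with 1088 against 43. For miR-467a the counts were 6055 and 757, and for miR-669a they were nearly balanced at 1625 and 1335. The order was turned for miR-466d, with 162 counts on the 5p arm and 1111 on the 3p arm, and the 3p arm was higher in every library. It was also turned for miR-669o, with 631 and 1335 counts, although its 3p counts are the same as those of miR-669a-3p. The remaining named hairpins were miR-669p with 1625 and 12 counts, and miR-466h with 227 and 125 counts. Because mature arms of different hairpins share reads, a ratio of arms describes the names and not a single precursor.

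The summed level of the members was 470.2, 392 and 305 CPM in the 3 FVB/N PFC libraries and 344, 509, 354 and 294 CPM in the 4 TgR PFC libraries. It was 375, 411 and 430.3 CPM in FVB/N hippocampus and 369, 394 and 342 CPM in TgR hippocampus. Means were 389 ± 82.4 CPM (SD, n = 3) in FVB/N PFC, 375 ± 93.1 CPM (SD, n = 4) in TgR PFC, 405 ± 27.9 CPM (SD, n = 3) in FVB/N hippocampus and 368 ± 26.2 CPM (SD, n = 3) in TgR hippocampus. The genotypes overlapped in both regions. In PFC their means differed by less than the SD of either group, and in hippocampus by more, and this sum was not tested. Without miR-467a-5p and miR-467b-5p, the hippocampal means were 279.9 ± 12 CPM (SD, n = 3) in FVB/N and 278 ± 23.9 CPM (SD, n = 3) in TgR. In whole tissue, fewer cells of a type and less RNA per cell cannot be told apart.

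**Figure D2:**
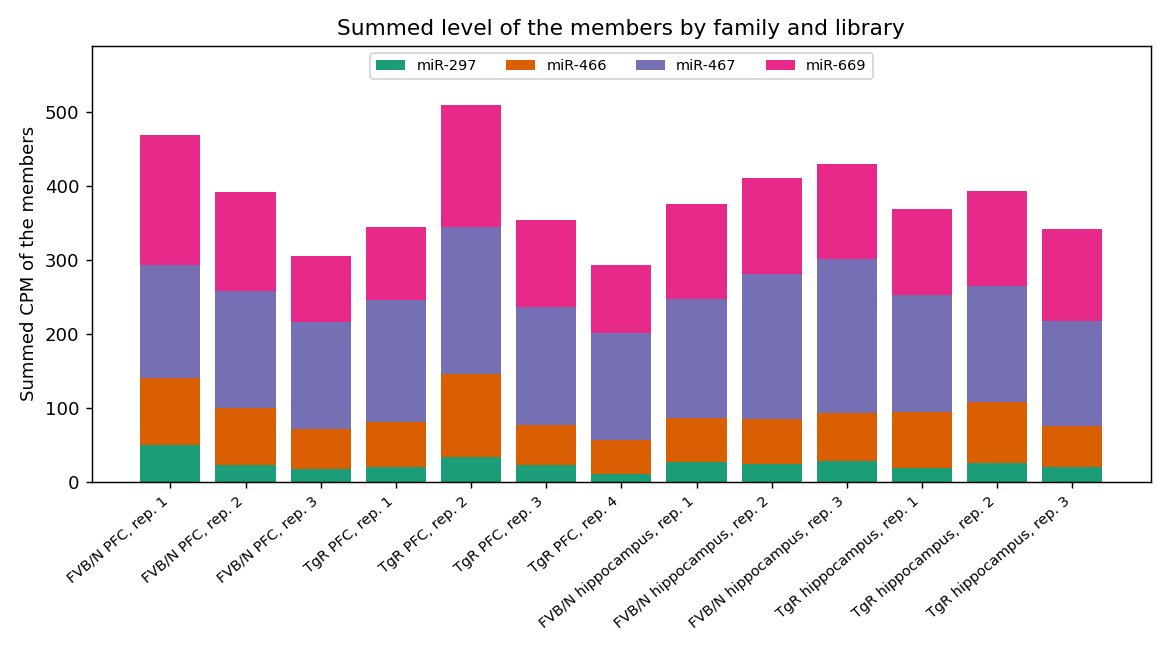
Bars give the summed CPM of the 73 members in each of the 13 libraries, stacked by family, from 0. The tallest bars are FVB/N PFC replicate 1 at 470.2 CPM and TgR PFC replicate 2 at 509 CPM, 1 library of each genotype.

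Libraries of the same group differed more in PFC than in hippocampus. Over all libraries of a region, both genotypes together, the coefficient of variation of the summed level was 21.4% in PFC and 8.17% in hippocampus. In PFC the 3p arms spread more, at 41.8%, than the 5p arms, at 12.9%. In hippocampus the arms were alike in relative spread, at 12.4% for 3p and 11.4% for 5p. The miR-297 family spread most, at 52.6% in PFC, from 50.0 CPM in FVB/N PFC replicate 1 to 10.3 CPM in TgR PFC replicate 4. The miR-467 family had 11.4% in PFC and 15.1% in hippocampus. No test of these spreads was made. Over all tested miRNAs, the biological coefficient of variation in the edgeR fits was 25.7% in PFC and 19.8% in hippocampus.

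FVB/N PFC replicate 1 and TgR PFC replicate 2 stood apart, a pair picked out after the values were seen. Of the 40 members tested over all libraries, 30 (75.0%) were highest in 1 of these 2 libraries, 12 in the former and 18 in the latter. With identical counts taken once it was 23 of 32 (71.9%), and among other tested miRNAs it was 149 of 607 (24.5%). It held for 16 of the 17 tested 3p arms and for 14 of the 23 tested 5p arms. Many of these 3p names share their counts, and the share of other miRNAs is not given by arm, so nothing is read from this contrast of arms. At the low end, TgR PFC replicate 4 was lowest for 18 members and FVB/N PFC replicate 3 for 10.

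Markers of other cells were read in the same libraries. All 4 neuronal markers were listed, led by miR-128-3p, and their summed level was 316384 CPM in FVB/N PFC replicate 1 and 333832 CPM in TgR PFC replicate 2. In the other PFC libraries it was 404175 and 405963 CPM in FVB/N and 389704, 372998 and 400997 CPM in TgR. Both libraries were thus the lowest of the PFC for neuronal markers. All 4 white blood cell markers were listed, led by miR-150-5p, and their sum was highest in the same pair, with 974 CPM in FVB/N PFC replicate 1 and 1080.2 CPM in TgR PFC replicate 2, against 772 and 785 CPM in the other FVB/N and 843, 847 and 802 CPM in the other TgR libraries. The 4 red blood cell markers, led by miR-451a, summed to 2476, 2434 and 1643 CPM in FVB/N PFC and 1966, 3814, 2211 and 2171 CPM in TgR PFC. The other lists separated the pair. FVB/N PFC replicate 1 was the highest PFC library for the 3 oligodendrocyte markers, led by miR-219a-2-3p, at 973 CPM, for the 4 choroid plexus markers, led by miR-204-5p, at 1225 CPM, and for the 3 vessel markers, led by miR-126a-3p, at 30882 CPM. TgR PFC replicate 2 had 750.5, 1022 and 23289.7 CPM of these lists, where the remaining PFC libraries had 603 to 795, 849 to 1034 and 21648 to 26238 CPM. No marker of these lists was at 0 in all libraries. TgR PFC replicate 2 was also the shallowest library, whereas FVB/N PFC replicate 1 had 15177449 counts. The part of these values in the high levels of the members was not tested.

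Markers of pluripotent and trophoblast cells, where the cluster is best known, were nearly absent. Of 9 markers 7 were listed, led by miR-302b-3p, whereas miR-290a-5p and miR-291a-3p had no count. Their summed level averaged 0.438 ± 0.576 CPM (SD, n = 3) in FVB/N PFC, 0.556 ± 0.330 CPM (SD, n = 4) in TgR PFC, 0.507 ± 0.129 CPM (SD, n = 3) in FVB/N hippocampus and 0.609 ± 0.437 CPM (SD, n = 3) in TgR hippocampus. None of these markers passed the filter on low counts.

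The first comparison asked whether excess AChE-R accompanies altered members in the hippocampus. The abundant pair miR-467a-5p and miR-467b-5p was lower in TgR hippocampus without passing the test, and the intervals of the other named members included 0. For miR-467a-5p, the 3 FVB/N hippocampi had 51.1, 68.7 and 68.2 CPM and the 3 TgR hippocampi had 48.1, 45.2 and 42.6 CPM. All FVB/N values lay above all TgR values, and FVB/N replicate 1 was closest to them. The log2 fold change of miR-467a-5p was -0.49 (SE 0.18, 95% interval -0.90 to -0.079), with an adjusted p of 0.18 in edgeR's quasi-likelihood test (Benjamini-Hochberg adjusted). For miR-467b-5p, which shares nearly all its reads with miR-467a-5p, it was -0.49 (SE 0.18) with the same adjusted p in that edgeR test.

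For miR-669c-5p, FVB/N hippocampus had 48.8, 43.5 and 52.8 CPM and TgR hippocampus had 42.2, 42.5 and 40.4 CPM. The groups did not overlap, but the nearest values were close, and the log2 fold change was -0.23 (95% interval -0.62 to 0.15), or -0.14 without FVB/N replicate 3. For miR-669a-5p and miR-669p-5p, FVB/N had 14.3, 14.4 and 15.0 CPM and TgR had 12.6, 12.9 and 13.1 CPM. Here too every TgR value was below every FVB/N value, with little spread in either group, and the log2 fold change was -0.20 (95% interval -0.58 to 0.18). For miR-467e-5p, FVB/N had 25.4, 30.3 and 35.5 CPM and TgR had 32.1, 34.6 and 29.5 CPM. The groups of miR-467e-5p overlapped widely, with a log2 fold change of 0.056 (95% interval -0.38 to 0.49), which turned to -0.069 without FVB/N replicate 1 and to -0.017 without TgR replicate 2.

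For miR-669a-3p and miR-669o-3p, FVB/N hippocampus had 12, 12.6 and 9.23 CPM and TgR hippocampus had 9.67, 13.6 and 12.5 CPM. These overlapped, and the log2 fold change was 0.064 (95% interval -0.41 to 0.54), which turned to -0.040 without FVB/N replicate 3 and to -0.051 without TgR replicate 2. For miR-466d-3p, FVB/N had 6.88, 9.28 and 9.10 CPM and TgR had 10.7, 13.6 and 8.22 CPM. Only TgR replicate 3 fell within the FVB/N range, and the log2 fold change was 0.34 (95% interval -0.21 to 0.88). It was 0.13 without TgR replicate 2 and 0.20 without FVB/N replicate 1. For miR-467c-5p, FVB/N had 9.82, 9.69 and 13.8 CPM and TgR had 10.8, 9.11 and 9.10 CPM. FVB/N replicate 3 stood above the others, and the log2 fold change of -0.22 had a 95% interval from -0.70 to 0.27. Without that library it was -0.0047.

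Of the 37 members tested in hippocampus, 0 passed an adjusted p of 0.05 in edgeR's quasi-likelihood test (Benjamini-Hochberg adjusted), against 30 of all 619 miRNAs tested (4.85%). The latter count rested on single libraries as well: it was 2 of 636 without FVB/N replicate 3 and between 10 and 18 without any other library. DESeq2 called 0 members as well, against 8.08% of all. Without adjustment 2 members, miR-467a-5p and miR-467b-5p, had p under 0.05, against 17.4% of all. That count was 5 without TgR replicate 2, stayed at 2 without FVB/N replicate 1, and was 0 without any of the other 4 libraries or with library size only. The share of all miRNAs at that p is not given for these fits, so nothing is read from the count of 5. The fitted value was higher in TgR for 18 members and lower for 19, with a median log2 fold change of -0.011, and the median over all tested miRNAs was -0.0014. The members' median was 0.027 without TgR hippocampus replicate 3 and 0.0065 without FVB/N hippocampus replicate 3, so no direction of the set is given. Groups did not overlap for 8 members that were lower in TgR, against 11.0% of all miRNAs in that direction, and for 2 that were higher, against 11.3%. The 8 lower names are fewer measurements, so their count is not read as a share. Among them miR-466d-5p shares its reads with miR-466n-5p, miR-467a-5p with miR-467b-5p and miR-669a-5p with miR-669p-5p. The higher ones, named after their values were seen, were miR-466c-5p and miR-669e-5p, with log2 fold changes of 0.46 and 0.34. The log2 fold changes of all tested members lay between -0.74 and 0.46.

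Other markers differed between the genotypes in the same hippocampi. The 4 choroid plexus markers, led by miR-204-5p, summed to 1928, 1353 and 1325 CPM in FVB/N and 6559.9, 2199 and 5777 CPM in TgR, and 3 of the 4 rose in edgeR's test. The 4 red blood cell markers summed to 1763, 1859 and 1847 CPM in FVB/N and 814, 1063 and 1092 CPM in TgR, and 3 of the 4 fell. Of the 3 oligodendrocyte markers, led by miR-219a-2-3p, 1 rose, and they summed to 2039.6, 2409 and 1484 CPM in FVB/N and 2374, 2297 and 3686 CPM in TgR. In edgeR's test 0 of the 4 neuronal markers passed (2 with unadjusted p under 0.05), 0 of the 4 white blood cell markers and 0 of the 3 vessel markers, the latter led by miR-126a-3p (0 each). No marker of these lists was at 0 in all libraries. The part of these tissue differences in the lower miR-467a-5p and miR-467b-5p values was not tested.

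The same question was put to the PFC, where the order of the genotypes for miR-467a-5p and miR-467b-5p was turned around. For miR-467a-5p, FVB/N PFC had 40.8, 47.8 and 47.3 CPM and TgR PFC had 56.4, 58.9, 48.9 and 50.3 CPM. All 4 TgR values lay above all 3 FVB/N values, and TgR replicate 3 came closest to them. The log2 fold change was 0.24 (SE 0.14, 95% interval -0.092 to 0.57), with an adjusted p of 0.999 in edgeR's quasi-likelihood test (Benjamini-Hochberg adjusted). Without both FVB/N replicate 1 and TgR replicate 2 it was 0.11. For miR-467c-5p, FVB/N had 7.14, 6.86 and 7.50 CPM and TgR had 8.32, 8.54, 9.76 and 9.16 CPM. These groups did not overlap either, and the log2 fold change was 0.31 (SE 0.17, 95% interval -0.074 to 0.70).

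The member with the smallest p in PFC was the rare miR-466h-3p. FVB/N PFC had 1.29, 1.46 and 2.13 CPM of it and TgR PFC had 1.05, 1.27, 0.742 and 0.386 CPM. TgR was lower throughout, although FVB/N replicate 1 and TgR replicate 2 nearly touched. The log2 fold change was -0.98 (SE 0.41, 95% interval -1.92 to -0.033) with an adjusted p of 0.999 in edgeR's test with Benjamini-Hochberg adjustment and an unadjusted p of 0.044.

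For miR-669c-5p, FVB/N PFC had 57.9, 42.1 and 37.7 CPM and TgR PFC had 37.5, 40.9, 37.4 and 33.3 CPM. FVB/N replicate 1 was far above the rest, and the log2 fold change was -0.31 (95% interval -0.74 to 0.12). It was -0.095 without that library, and without any other single library it lay between -0.43 and -0.26. For miR-467e-5p, FVB/N had 33.4, 36.4 and 25.7 CPM and TgR had 27.7, 47.8, 32.4 and 24.6 CPM. TgR replicate 2 was the highest and the groups overlapped, with a log2 fold change of 0.047 (95% interval -0.54 to 0.63). For miR-669a-5p and miR-669p-5p, FVB/N had 22.5, 15.0 and 9.51 CPM and TgR had 9.38, 17.3, 14.3 and 10.7 CPM. FVB/N replicate 1 was highest and the groups overlapped, with a log2 fold change of -0.30 (95% interval -1.06 to 0.46).

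For miR-669a-3p and miR-669o-3p, FVB/N PFC had 18.4, 14.9 and 4.59 CPM and TgR PFC had 7.69, 22.2, 7.74 and 6.95 CPM. Single libraries set both ends, TgR replicate 2 at the top and FVB/N replicate 3 at the bottom, and the log2 fold change of -0.22 had the wide 95% interval of -1.49 to 1.05. Without TgR replicate 2 it was -0.78 and without FVB/N replicate 1 it was 0.18. For miR-466d-3p, FVB/N had 11.3, 9.35 and 8.39 CPM and TgR had 7.16, 16.3, 7.21 and 7.52 CPM. TgR replicate 2 was above all FVB/N values and the other 3 TgR libraries were below them, and the log2 fold change was -0.046 (95% interval -0.81 to 0.72). Other signs in PFC turned as well: without FVB/N replicate 1 the log2 fold change was 0.074 for miR-669a-5p and 0.094 for miR-466d-3p, and without TgR replicate 2 it was -0.19 for miR-467e-5p.

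In PFC 0 of the 40 tested members passed an adjusted p of 0.05 in edgeR's quasi-likelihood test (Benjamini-Hochberg adjusted), against 1 of all 628 miRNAs (0.159%). DESeq2 called 0 members too, again against 0.159% of all. Without adjustment 1 member, miR-466h-3p, had p under 0.05, against 3.18% of all. That count was 0 without TgR PFC replicate 3, without TgR PFC replicate 4, with DESeq2 and with the replicate block. Without FVB/N PFC replicate 3 the member was miR-669c-5p instead, at an unadjusted p of 0.0499 in edgeR's test. Groups did not overlap for 3 members that were higher in TgR, miR-467a-5p, miR-467b-5p and miR-467c-5p, against 2.39% of all miRNAs in that direction, and for 1 that was lower, miR-466h-3p, also against 2.39%. The former are 2 measurements rather than 3, since miR-467a-5p and miR-467b-5p share their reads. None of the PFC markers of neurons, oligodendrocytes, choroid plexus, red or white blood cells or vessels passed edgeR's test, and 1 of them, a choroid plexus marker, had an unadjusted p under 0.05.

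The direction of the members as a set in PFC rested on single libraries. The fitted value was lower in TgR for 26 members and higher for 14, with a median log2 fold change of -0.17 against 0.0028 over all tested miRNAs. Without FVB/N PFC replicate 1 the median was 0.094, without TgR PFC replicate 4 it was 0.014 and without TgR PFC replicate 2 it was -0.39. Leaving out both FVB/N PFC replicate 1 and TgR PFC replicate 2 gave -0.10, and the replicate block gave 0.011, with 22 of 40 members higher. No direction of the family is therefore given for the PFC.

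The other arms of the named hairpins did not pass the test either. For miR-467a-3p, FVB/N PFC had 11.8, 6.28 and 4.81 CPM and TgR PFC had 4.42, 8.17, 5.09 and 3.18 CPM. FVB/N replicate 1 and TgR replicate 2 were the high libraries of this arm, in contrast to miR-467a-5p, for which FVB/N replicate 1 was the lowest. Its log2 fold change was -0.59 in PFC (95% interval -1.51 to 0.32) and -0.15 in hippocampus (95% interval -0.60 to 0.31). For miR-466d-5p, FVB/N hippocampus had 1.27, 1.31 and 2.15 CPM and TgR hippocampus had 0.723, 0.976 and 1.15 CPM. These groups did not overlap, with a log2 fold change of -0.74 (95% interval -1.57 to 0.10), whereas in PFC it was 0.49 (95% interval -0.83 to 1.80). The log2 fold change of miR-669o-5p was 0.11 in hippocampus (95% interval -0.44 to 0.66) and -0.12 in PFC (95% interval -0.83 to 0.59). That of miR-466h-5p was -0.011 in hippocampus (95% interval -0.62 to 0.59) and 0.21 in PFC (95% interval -0.66 to 1.09). The arms miR-467b-3p, miR-669c-3p, miR-669p-3p, miR-467c-3p and miR-467e-3p averaged under 1 CPM in every group and were not tested.

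**Figure D3:**
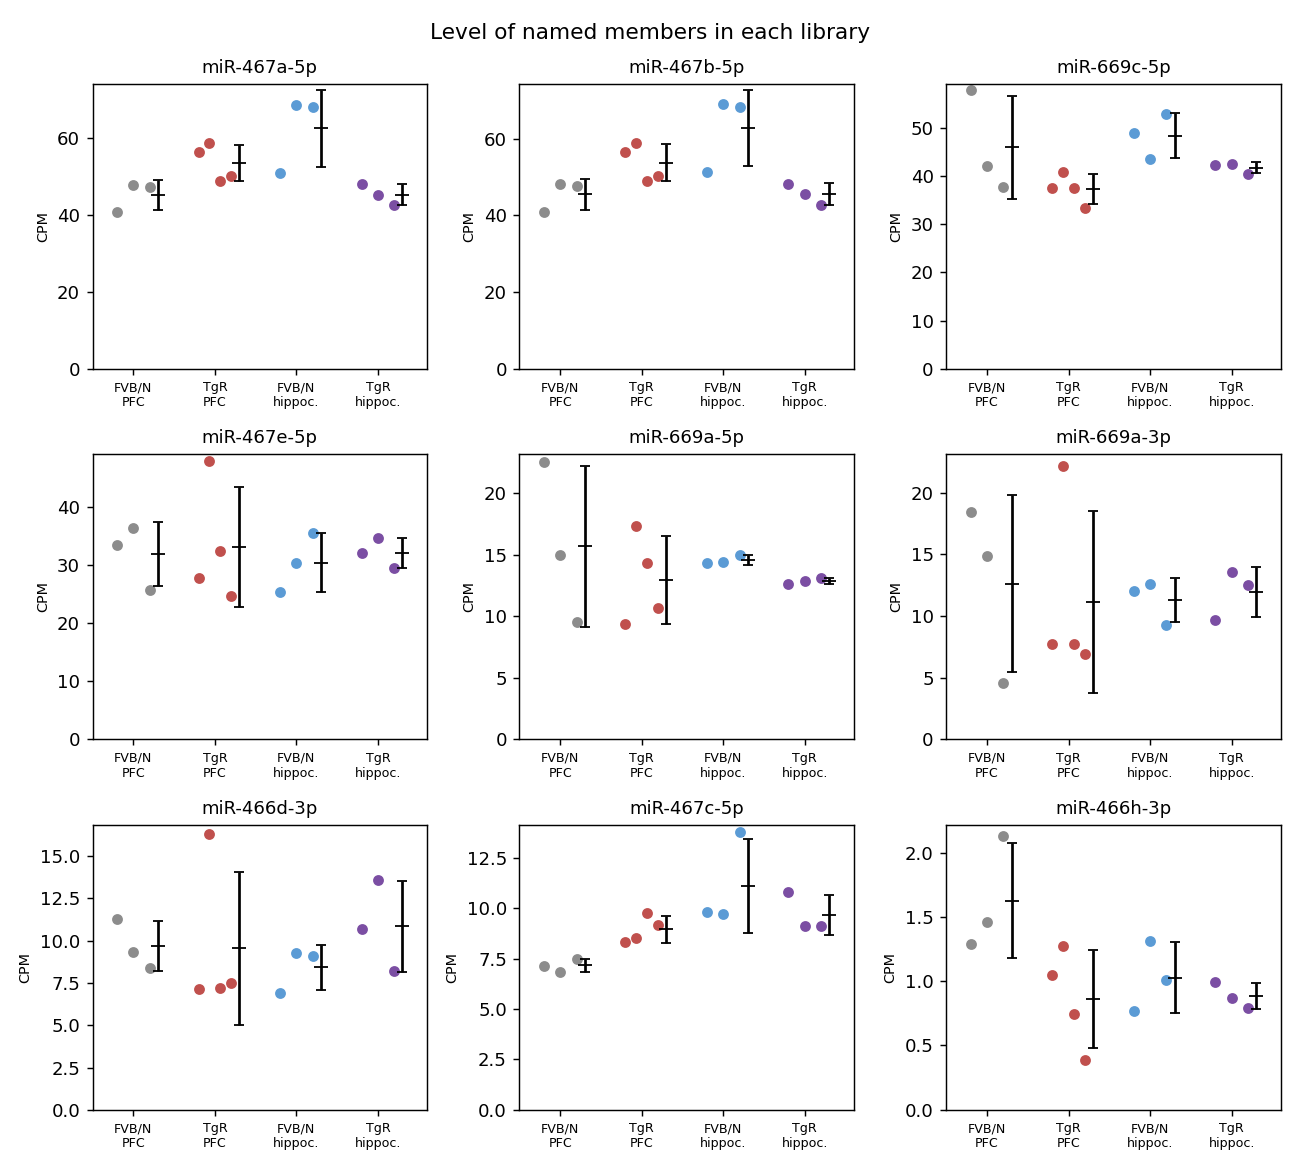
Each panel shows 1 named member, with CPM on the y axis from 0, 1 point per library in the 4 groups, and bars for mean and SD. For miR-467a-5p and miR-467b-5p the TgR points sit above the FVB/N points in PFC and below them in hippocampus, and for miR-669a-3p and miR-466d-3p TgR PFC replicate 2 sits alone at 22.2 and 16.3 CPM.

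Whether the genotype acted differently in the 2 regions was tested over all 13 libraries as the hippocampal minus the PFC effect. The smallest p among the members was that of miR-467a-5p, with a difference of -0.71 on the log2 scale (SE 0.22, 95% interval -1.19 to -0.23). Its unadjusted p was 0.0069, and the adjusted p was 0.24 in edgeR's quasi-likelihood test (Benjamini-Hochberg adjusted). For miR-467b-5p the difference was -0.71 (SE 0.22) with an adjusted p of 0.24 in that test. DESeq2 placed both just past the threshold, with adjusted p of 0.049 for miR-467a-5p and 0.0497 for miR-467b-5p. Over all alternatives run, the adjusted p of miR-467a-5p ranged from 0.049 to 0.83, so its call rests on the tool. The log2 difference kept its sign in all of them, including the 13 fits that left out 1 library each, where it lay between -0.87 and -0.63.

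For miR-467c-5p, whose TgR values also lay above those of FVB/N in PFC but not in hippocampus, the difference was -0.51 (SE 0.26, 95% interval -1.06 to 0.036). It was -0.32 without FVB/N hippocampus replicate 3, whereas the unadjusted p was 0.049 without FVB/N hippocampus replicate 1 and 0.04 without FVB/N hippocampus replicate 2, at -0.63 and -0.61. The other named members had intervals that included 0, such as miR-669c-5p at 0.088 (95% interval -0.43 to 0.61) and miR-466d-3p at 0.40 (95% interval -0.52 to 1.32). The latter was 0.75 without TgR PFC replicate 2, with an unadjusted p of 0.03 and an adjusted p of 0.36 in edgeR's test, and 0.19 without TgR hippocampus replicate 2. Of 40 tested members 0 were called by edgeR's quasi-likelihood test (Benjamini-Hochberg adjusted), against 3 of all 647 miRNAs (0.464%). Unadjusted p was under 0.05 for 2 members, against 8.50% of all, and DESeq2 called 2 members, against 2.16% of all. The former count was 8 without TgR PFC replicate 2 and 4 without FVB/N PFC replicate 1. The share of all miRNAs at that p is not given for these fits, so nothing is read from the rise. With adjustment, edgeR's test called 0 of 40 members without TgR PFC replicate 2, against 5 of all 644 miRNAs. Without FVB/N PFC replicate 1 it called 0 of 41 members, against 2 of all 668. The difference was above 0 for 27 members and below 0 for 13, with a median of 0.22 against 0.027 over all, and the members' median was -0.11 without FVB/N PFC replicate 1 and -0.0043 with the replicate block, where 20 of 40 were above 0. Markers of other cells differed in the same contrast. For choroid plexus, edgeR's test called 1 of 4, all 4 had unadjusted p under 0.05, and the median was 2.38 on the log2 scale. For red blood cells it called 0 of 4, with 3 at unadjusted p under 0.05 and a median of -0.93. It called 0 of 3 oligodendrocyte markers (0 with unadjusted p under 0.05, median 0.76), 0 of 4 neuronal markers (1, median 0.050), 0 of 4 white blood cell markers (0, median -0.18) and 0 of 3 vessel markers (0, median -0.16). DESeq2 calls were not counted for the marker lists. The part of these differences in that of miR-467a-5p was not tested.

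**Figure D4:**
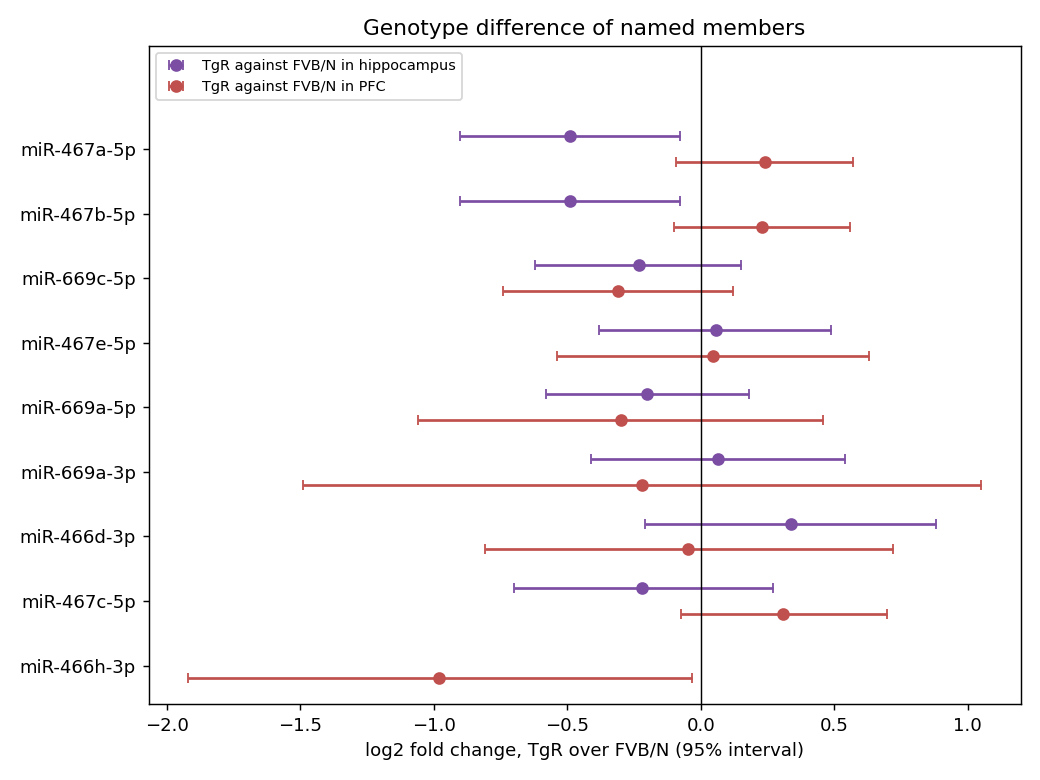
Points give the log2 fold change of TgR over FVB/N (x axis) for each named member tested in hippocampus and in PFC, with 95% intervals from the edgeR fits, and the vertical line marks no difference. The intervals of miR-467a-5p and miR-467b-5p lie below 0 in hippocampus and include 0 in PFC, and neither passed the adjusted threshold.

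Hippocampus and PFC were then compared over both genotypes. The leading member was miR-467c-5p, with 6.86 to 7.50 CPM in FVB/N PFC, 8.32 to 9.76 CPM in TgR PFC, 9.69 to 13.8 CPM in FVB/N hippocampus and 9.10 to 10.8 CPM in TgR hippocampus. By mean, FVB/N PFC was lowest at 7.17 CPM and FVB/N hippocampus highest at 11.1 CPM, and the TgR groups overlapped between regions. The log2 fold change of hippocampus over PFC was 0.37 (SE 0.13, 95% interval 0.10 to 0.64), with an adjusted p of 0.059 in edgeR's quasi-likelihood test (Benjamini-Hochberg adjusted). Without FVB/N hippocampus replicate 3 it was 0.24, the only fit leaving out 1 library in which its unadjusted p was not under 0.05. With library size as the only scaling its adjusted p was 0.041, and over all alternatives it ranged from 0.041 to 0.75, the highest in TgR libraries alone.

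Among the 40 members tested between regions, 0 passed edgeR's quasi-likelihood test (Benjamini-Hochberg adjusted), whereas 124 of all 647 miRNAs did (19.2%). DESeq2 called 0 members, against 20.2% of all, and 1 member had an unadjusted p under 0.05, against 31.1% of all. In 0 members were the regions without overlap, against 7.42% of all miRNAs. The fitted value was lower in hippocampus for 29 members and higher for 11, with a median log2 fold change of -0.063 against 0.021 over all. That median was 0.045 without FVB/N PFC replicate 1 and 0.044 without TgR PFC replicate 2, so its sign rested on either library.

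Between regions the cell markers differed widely. In edgeR's test 3 of 3 oligodendrocyte markers and 3 of 4 choroid plexus markers rose in hippocampus, with median log2 fold changes of 1.82 and 1.51. Red and white blood cell markers fell, 3 of 4 in each list, with medians of -0.73 and -0.48. Of the neuronal markers 1 of 4 fell (median -0.20), and of the vessel markers 0 of 3 passed (2 with unadjusted p under 0.05, median -0.29). Their part in the miR-467c-5p difference was not tested.

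The regions were also compared within each genotype, from the fit over all 13 libraries, whose spread comes from both genotypes. In FVB/N the smallest p among the members was that of miR-467c-5p, with a log2 fold change of hippocampus over PFC of 0.63 (SE 0.19, 95% interval 0.22 to 1.03) and an adjusted p of 0.058 in edgeR's test. In TgR it was 0.11 (95% interval -0.26 to 0.48). Fitted on the libraries of 1 genotype alone, it was 0.62 in FVB/N, with an adjusted p of 0.23 in edgeR's test, and 0.090 in TgR.

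For miR-467a-5p, the FVB/N values ran from 40.8 to 47.8 CPM in PFC and from 51.1 to 68.7 CPM in hippocampus, without overlap. Its log2 fold change of hippocampus over PFC was 0.47 (SE 0.16, 95% interval 0.12 to 0.82), with an adjusted p of 0.096 in edgeR's test with Benjamini-Hochberg adjustment. Fitted on the FVB/N libraries alone, it was again 0.47, but the adjusted p was 0.34 and the unadjusted p was not under 0.05. Within TgR mice the order was opposite, from 48.9 to 58.9 CPM in PFC and from 42.6 to 48.1 CPM in hippocampus, with a log2 fold change of -0.24 (95% interval -0.57 to 0.088), or -0.26 in TgR libraries alone. These comparisons share their libraries with the genotype comparisons, so they restate the same values. The averaged log2 fold change over both genotypes was 0.11 (95% interval -0.13 to 0.35), and with 1 library left out it lay between 0.051 and 0.17.

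In the fit over all 13 libraries, edgeR's test called 0 members between regions in FVB/N, against 7.57% of all miRNAs, while 3 had an unadjusted p under 0.05 (20.9% of all). Fitted on FVB/N libraries alone, it called 0 of 37 members and 22 of all 615 miRNAs, and 1 member, miR-467c-5p, had an unadjusted p under 0.05. No overlap was seen for 3 members higher in hippocampus, miR-467a-5p, miR-467b-5p and miR-467c-5p, against 12.2% of all in that direction. It was seen for 2 lower ones, miR-466a-3p and miR-466e-3p, named after their values were seen, against 8.81%. In TgR, the fit over all 13 libraries called 0 members in edgeR's test, against 10.2% of all, and 0 had an unadjusted p under 0.05 (23.0% of all). Fitted on TgR libraries alone, edgeR's test called 0 of 39 members and 86 of all 633 miRNAs, and 2 members, miR-466d-5p and miR-466n-5p, which have the same counts, had an unadjusted p under 0.05 (both -0.90, adjusted p 0.16). No overlap was seen for 4 members lower in hippocampus, miR-467a-5p, miR-467b-5p, miR-466d-5p and miR-466n-5p, against 12.4%, and for 0 higher, against 15.0%. In both genotypes these counts of members include names that share their reads, such as miR-467a-5p and miR-467b-5p. DESeq2 was not run within a single genotype.

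Another large imprinted cluster, the distal Dlk1-Dio3 miRNAs, was read by the same counts. Of its 71 mature miRNAs listed, 64 were tested. In hippocampus edgeR's test called 2 of these 64 lower in TgR and 0 higher, where 4.85% of all miRNAs were called, with a median log2 fold change of -0.12. Without adjustment 16 of the 64 had p under 0.05 in that test, against 17.4% of all. In PFC it called 0, against 0.159% of all, with a median of -0.014. There 3 had unadjusted p under 0.05, against 3.18% of all. For the difference between regions it called 0, against 0.464% of all, with a median of 0.026. Here 4 had unadjusted p under 0.05, against 8.50% of all. Between hippocampus and PFC it called 5 lower in hippocampus and 0 higher, against 19.2% of all, with a median of -0.15. Unadjusted p was under 0.05 for 13 of them, against 31.1% of all. The members of miR-297, miR-466, miR-467 and miR-669 had 0 edgeR calls in each of these comparisons, against the same shares of all miRNAs called, with medians of -0.011, -0.17, 0.22 and -0.063. No test compared the clusters.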

How the data were processed

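Total RNA of PFC or hippocampus was made into 13 small-RNA libraries. The authors used FastQC for quality control and miRExpress (default parameters, miRBase) for alignment, and deposited counts per pair of hairpin and mature miRNA, without normalization. Pairs not listed were taken as 0. Here each mature miRNA was read at the hairpin with the highest total. Groups came from the sample titles. For FVB/N PFC the deposited numbering differs from the titles, so replicate numbers there are uncertain.

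Counts were tested with edgeR 4.0.16 (R 4.3.3), using TMM scaling, a filterByExpr minimum of 10 counts, quasi-likelihood fits over all miRNAs and Benjamini-Hochberg adjustment with a threshold of 0.05. Standard errors are the size of the log2 fold change over the square root of F, and 95% intervals use the t distribution with the fit's degrees of freedom. The code was tested on simulated data. Alternatives were DESeq2 1.42.0, other scalings, filters, thresholds and rows, a replicate block, other sets of libraries and each library left out. Named members were the 10 with the highest mean CPM, those with the smallest p in each comparison where none passed, and their other arms. Members and lists were chosen with earlier results of these data known. A p above the threshold does not show that groups were alike. Positions are from RefSeq GRCm38.p6 and GENCODE M21. Behavioral, histological, microarray and qPCR data were not used here.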

Additional observations from a re-analysis of the deposited data

Results flagged for a closer look

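In TgR PFC, the group with 4 libraries, replicate 2 lay far from the other 3 for 4 of the 29 values examined. It had 22.2 CPM of miR-669a-3p, and the same 22.2 CPM of miR-669o-3p, whose counts are identical, where the others had 6.95 to 7.74 CPM. It had 16.3 CPM of miR-466d-3p, where the others had 7.16 to 7.52 CPM. It had 0.182 CPM of miR-467b-3p, a single count and under the floor of 3 counts, where the others had none, so nothing is read from this value. Such a distance arises by chance in about 1 of 20 groups, and only 2 distinct profiles above the floor lay apart here. This library was also the shallowest, at 8769851 counts, and the part of its depth in these values was not tested.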

How the results depend on the processing

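The count of members called was 0 in hippocampus and in PFC under every alternative run, and 0 in all 4 comparisons with any 1 library left out. DESeq2 called 2 members for the difference between regions, against 14 of all 647 miRNAs. Between hippocampus and PFC, 1 of 40 members was called at an adjusted p under 0.1, against 162 of all 647 miRNAs. With library size only it was 1 of 40 members, against 130 of all 647. For the alternatives, the share of all miRNAs with an unadjusted p under 0.05 is not given. Such counts of members are therefore not compared with it. Scaling by library size alone moved the median log2 fold change of all tested miRNAs to 0.10 in hippocampus and 0.15 for the difference between regions, with the members at 0.091 and 0.34. The summed level in FVB/N PFC, TgR PFC, FVB/N hippocampus and TgR hippocampus was 242, 227, 246 and 233 CPM when each member, still counted once, was divided by the larger total of every hairpin and mature pair, without TMM scaling. In FVB/N and TgR hippocampus it was 343 and 323 CPM without the most abundant member, whose near copy miR-467a-5p stays in the sum, and 349 and 316 CPM with identical counts taken once. Taking identical counts once, merging them, and leaving out FVB/N PFC replicate 1 with TgR PFC replicate 2 were chosen after seeing the data. Summing members of the same seed was not run, because only 4 had a sequence. For miR-467c-5p no value was given between regions at a mean of at least 100 counts.

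None of the named log2 fold changes that reversed passed the test in either form. For the difference between regions, miR-467e-5p was -0.0015 with DESeq2 size factors, -0.018 at a mean of at least 100 counts and -0.014 over every hairpin and mature pair. Between regions, miR-466d-3p was 0.014 with library size only, 0.0024 with no filter and 0.19 in TgR alone, miR-669a-3p and miR-669o-3p were 0.13 in TgR alone, and miR-467a-5p and miR-467b-5p were -0.26 in TgR alone. The cause was not tested. Signs also turned when 1 library, or FVB/N PFC replicate 1 with TgR PFC replicate 2, was left out. In hippocampus, the range was -0.069 to 0.21 for miR-467e-5p and -0.051 to 0.21 for miR-669a-3p and miR-669o-3p. In PFC, it was -0.19 to 0.17 for miR-467e-5p, -0.55 to 0.074 for miR-669a-5p and miR-669p-5p, -0.78 to 0.18 for miR-669a-3p and miR-669o-3p, and -0.42 to 0.094 for miR-466d-3p. For the difference between regions, it was -0.13 to 0.19 for miR-669c-5p, -0.11 to 0.24 for miR-467e-5p, -0.26 to 0.36 for miR-669a-5p and miR-669p-5p, and -0.11 to 0.84 for miR-669a-3p and miR-669o-3p. Between hippocampus and PFC, it was -0.14 to 0.056 for miR-467e-5p, -0.20 to 0.19 for miR-669a-5p and miR-669p-5p, -0.22 to 0.43 for miR-669a-3p and miR-669o-3p, and -0.12 to 0.22 for miR-466d-3p.

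Whether the replicate numbers pair the libraries was not settled. Between regions, same-numbered libraries correlated at 0.143, 0.066 and 0.213 in FVB/N and at 0.11, 0.451 and -0.196 in TgR. Between genotypes, which are different mice, the correlations ran from -0.214 to 0.459. Not every library correlated best with its own number, and the numbering of FVB/N PFC is uncertain, so these values cannot decide it. With the replicate block, 0 members were called in each of the 4 comparisons, and the members' median turned to 0.011 in PFC and to -0.0043 for the difference between regions. Reversed values with the block were 0.0058 for miR-669a-3p and miR-669o-3p in PFC and 0.040 between regions, and for the difference between regions -0.063 for miR-467e-5p and -0.0091 for miR-669a-5p and miR-669p-5p.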
